A study of Mus musculus with 10 samples.

Results

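The genes described here encode DMC1, the recombinase of meiosis, and proteins that help recombinases load onto broken DNA and invade the homologous chromosome. The members were chosen by gene symbol: every probe set of both value tables annotated to Dmc1, Psmc3ip, Mnd1, Meiob, Brca1, Brca2, Hsf2bp, Rad54l or 4930432K21Rik, whose current name is Brme1. All 9 genes were found, with 18 probe sets (12 on the first array design and 6 on the second) out of 45265 on both, and 18194 genes were read in all. Messenger RNA was measured in C57BL/6 male mice in 5 groups, each with 1 sample on each array design. Spermatogonia were Percoll fraction 2 of testes from 8-day-old mice, leptotene/zygotene spermatocytes fraction 5 at day 12, and pachytene spermatocytes fraction 8 at day 15. Whole testis and a mixture of 11 somatic tissues (skin, spleen, brain, muscle, heart, kidney, colon, liver, intestine, lung and stomach) were taken at day 15. No group carried a mutation or a treatment, and the fractions were enriched by density, not sorted by a marker. The labels do not say how many animals were pooled or whether the 2 samples of a group were prepared separately.

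In meiosis, programmed DNA breaks are cut back to single-stranded ends, which are first coated by single-strand binding proteins. BRCA2 and its partners then exchange these for recombinase filaments, and the filament pairs with the homologous chromosome. The HOP2-MND1 heterodimer (HOP2 is the product of Psmc3ip) assists that pairing, and RAD54L is a motor protein of homologous recombination. In the mouse testis these events span the leptotene, zygotene and early pachytene stages.

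With 1 array per group behind every member value, differences carry no p-value here. Arrays of a design were scaled to a common trimmed mean, and signals at or under a floor (87.6 on the first design, 47.0 on the second) are treated as not measured above background. The error of a log2 difference came from 100 probe sets placed on both designs, and a difference beyond its 95% limit is called higher or lower here. Rose and fell are kept for differences of at least 4-fold. The shared probe sets are bright, so the error of a dim member is not covered. Nor do the labels say whether the samples of a group were separate preparations, so the limit may hold technical variation only. Each gene was read from its brightest probe set, and 6 of the 9 came from the first design. Of the 18 member probe sets, 16 were above the floor in some group.

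The fractions carried other cells as well. Of 10 Sertoli cell markers, 10 were above the floor in spermatogonia, 10 in leptotene/zygotene, 9 in pachytene (not Amh) and 8 in whole testis. Their summed signals there were 30449, 25581, 5862 and 19746. The 6 spermatogonial markers of the first design summed to 4423 in spermatogonia, 7873 in leptotene/zygotene and 5505 in pachytene. Single genes weighed heavily: Stra8 gave 2081 and 3295 in the first 2 fractions, and Dmrtb1 4425 in pachytene. Of all 8 markers, 6 were higher in leptotene/zygotene than in spermatogonia, and Zbtb16 and Gfra1 were within the limit. Zbtb16 was above the floor in spermatogonia alone of the fractions. These sums do not rank the fractions by their content of spermatogonia. The 9 pachytene markers of the first design summed to 62256 in pachytene, 32842 in whole testis, 4036 in leptotene/zygotene and 848 in spermatogonia. The germ cell markers Ddx4, Dazl and Mael were below the floor in the somatic mixture. In such bulk samples, fewer cells of a type and less RNA per cell cannot be told apart. Stage, age and Percoll fraction change together across the fractions, so they cannot be told apart either. Whole testis differed in its labelled RNA: the 3' to 5' signal ratio of the Gapdh control was 4.33 and 3.75 on its 2 arrays, against 1.07 to 1.52 on the other 8.

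The stretches before the start sites are printed for Dmc1 and Psmc3ip, whose levels parted in pachytene, and for Brca2 and Brme1, which each held matches to 2 motifs. Each is 220 bases, 200 before the annotated start and 20 after it, 5' to 3', from RefSeq on GRCm38.p6. Capitals mark letters that match a searched motif.
Dmc1, chr15:79605090-79605309, minus strand: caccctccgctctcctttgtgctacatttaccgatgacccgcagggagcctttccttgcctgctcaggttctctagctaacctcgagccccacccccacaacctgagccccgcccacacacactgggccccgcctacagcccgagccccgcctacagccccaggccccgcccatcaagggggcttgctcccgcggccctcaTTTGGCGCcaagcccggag
Psmc3ip, chr11:101095416-101095635, minus strand: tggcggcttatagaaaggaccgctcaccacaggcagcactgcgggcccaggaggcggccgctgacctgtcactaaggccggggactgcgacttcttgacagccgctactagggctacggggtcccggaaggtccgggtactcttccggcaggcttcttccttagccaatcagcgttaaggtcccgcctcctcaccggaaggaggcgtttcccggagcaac
Brca2, chr5:150522421-150522640, plus strand: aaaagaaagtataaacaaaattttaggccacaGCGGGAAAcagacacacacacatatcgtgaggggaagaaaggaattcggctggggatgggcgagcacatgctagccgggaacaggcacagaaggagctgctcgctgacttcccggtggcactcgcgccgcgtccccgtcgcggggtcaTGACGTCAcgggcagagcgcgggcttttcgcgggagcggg
Brme1, chr8:84147838-84148057, plus strand: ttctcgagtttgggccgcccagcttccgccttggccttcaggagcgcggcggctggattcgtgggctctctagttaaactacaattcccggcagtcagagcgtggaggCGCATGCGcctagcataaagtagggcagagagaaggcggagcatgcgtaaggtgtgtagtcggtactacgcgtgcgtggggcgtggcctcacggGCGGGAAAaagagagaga
The motifs were CNCCTCAG (STRA8 and MEIOSIN), TTTNNCGC (E2F), TAACGG (MYB; variants with an initial C, with TG at the end, or with both, were also searched), CGCATGCG (NRF1) and TGACGTCA (CRE), read on both strands over 300 bases, from 250 before to 50 after the start. CGCATGCG and TGACGTCA each read the same on both strands, and no motif overlapped another in these genes. The table held 8 of the 9 members. E2F letters stood in Dmc1, Brca2 and Brme1 (3 of 8), against 5.17% of 32851 windows of all genes. MYB letters stood in Hsf2bp and Rad54l (28.3% of all windows), NRF1 letters in Brme1 (1.87%) and CRE letters in Brca2 (1.79%). The STRA8 and MEIOSIN letters stood in none of these 8 and in 7.94% of all windows. The G and C content of the 250 bases before the start ran from 50.4% (Hsf2bp) to 68.8% (Dmc1), with a median of 52.4% over all windows.

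**Figure D1:**
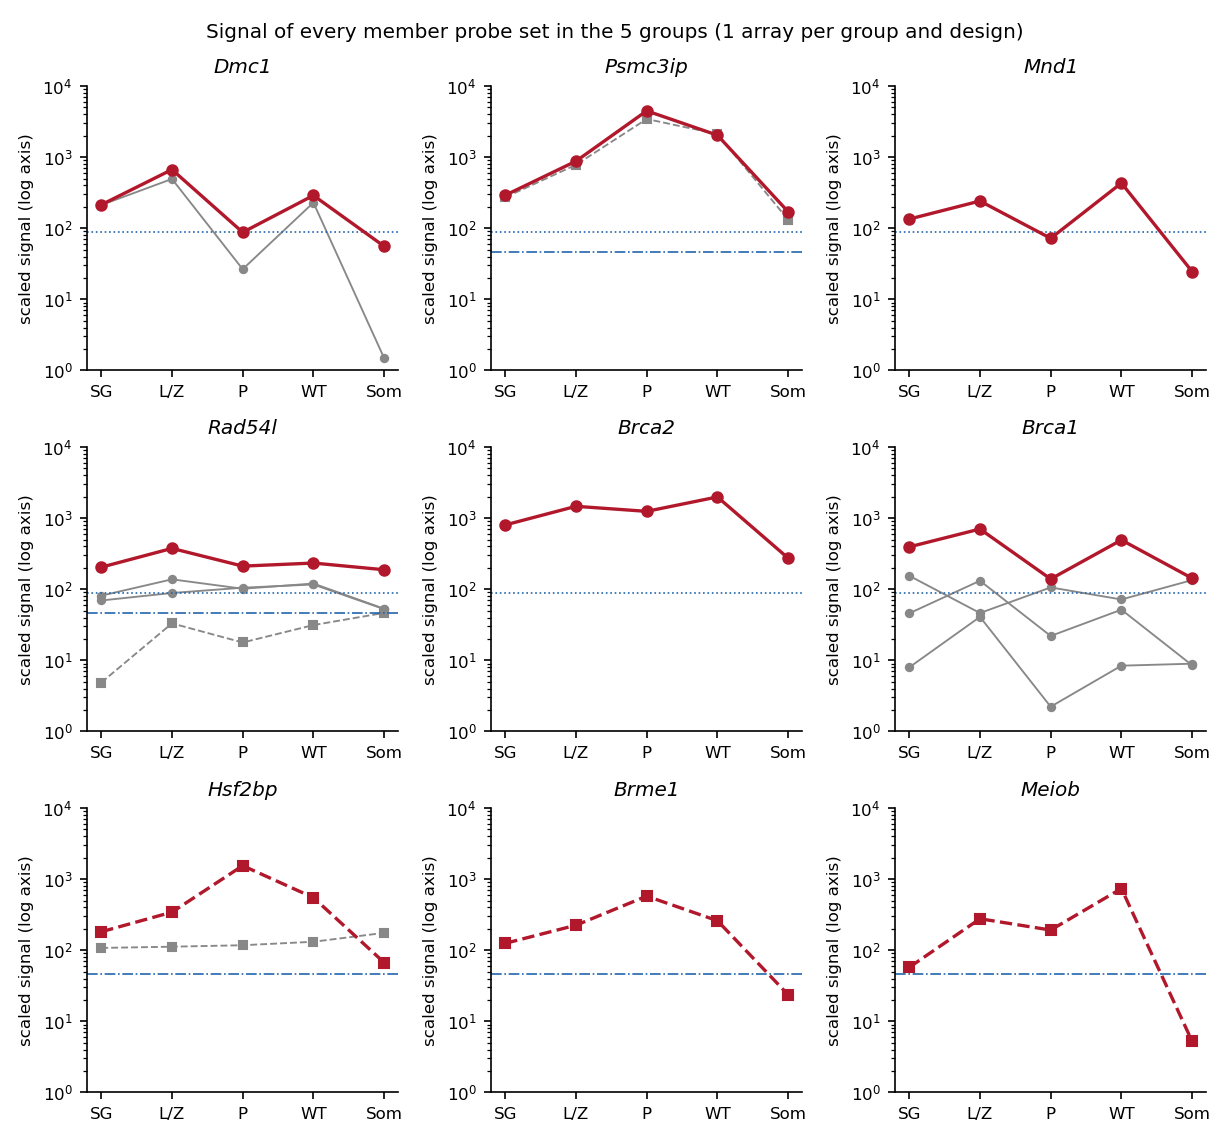
Scaled signal (log axis) of each member probe set in spermatogonia (SG), leptotene/zygotene (L/Z), pachytene (P), whole testis (WT) and the somatic mixture (Som), 1 array per point. Red marks the probe set used for the gene, grey the others, circles with solid lines the first design, squares with dashed lines the second, and blue lines the floors (87.6 dotted, 47.0 dash-dotted). Psmc3ip, Hsf2bp and Brme1 peak in pachytene, whereas Dmc1 and Brca1 peak in leptotene/zygotene.

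Dmc1 RNA was highest in the leptotene/zygotene fraction and below the floor in pachytene. Its signal was 213 in spermatogonia, 668 in leptotene/zygotene, 87.5 in pachytene, 289 in whole testis and 55.7 in the somatic mixture. The pachytene value lay just under the floor of 87.6, so pachytene and the somatic mixture have no order. Whole testis and spermatogonia were within the error limit of each other. The second Dmc1 probe set gave 212, 493, 26.5, 229 and 1.49 in the same order of groups, with the same groups below the floor. Dmc1 was 3.13-fold higher in leptotene/zygotene than in spermatogonia (log2 1.65) and 2.31-fold higher than in whole testis (log2 1.21). From leptotene/zygotene to pachytene it fell at least 7.62-fold, and by the second probe set the log2 difference against the floor was -2.49. With the floor at the 60th percentile of signals the first value was -1.57, which is no call.

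Psmc3ip, whose product HOP2 works with DMC1, was higher still in pachytene, where Dmc1 fell. Its signal was 291 in spermatogonia, 876 in leptotene/zygotene, 4472 in pachytene, 2033 in whole testis and 170 in the somatic mixture, with every step of that order beyond the error limit. A different probe set on the second design, hybridised with the second sample of each group, gave 272, 778, 3434, 2111 and 132. Of these genes, Psmc3ip alone was above the floor on both designs. From spermatogonia to leptotene/zygotene the log2 difference was 1.59 on the first design and 1.52 on the second. From leptotene/zygotene to pachytene Psmc3ip rose by 2.35 and 2.14, and from spermatogonia to pachytene by 3.94 and 3.66. The 2 designs thus differed by less than the error limit of each of these comparisons (0.35, 0.41 and 0.46).

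Mnd1 encodes the partner of HOP2, and its RNA did not follow Psmc3ip. Its only probe set gave 134 in spermatogonia, 241 in leptotene/zygotene, 72.1 in pachytene, 432 in whole testis and 24.6 in the somatic mixture. Pachytene and the somatic mixture were below the floor. Mnd1 was 1.79-fold higher in leptotene/zygotene than in spermatogonia and at least 2.75-fold lower in pachytene than in leptotene/zygotene. It was at least 4.92-fold lower in pachytene than in whole testis, the only member called there in that direction. These signals are dim, and with the floor at the 60th percentile the difference from spermatogonia shrank from log2 0.84 to 0.10. The partners' differences between pachytene and leptotene/zygotene had opposite signs under every scaling tried, from 2.01 to 2.77 for Psmc3ip and from -1.72 to -1.20 for Mnd1. With the floor at the 60th percentile the Mnd1 value was -0.10, within the error limit.

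Brca2, whose product loads recombinases onto single-stranded DNA, did not fall in pachytene. Its signal was 802 in spermatogonia, 1465 in leptotene/zygotene, 1244 in pachytene, 1984 in whole testis and 274 in the somatic mixture. Leptotene/zygotene lay within the error limit of both whole testis and pachytene. The pachytene difference of -0.24 turned to 0.13 under median scaling and to 0.19 when arrays were scaled on the shared probe sets. Brca2 was 1.83-fold higher in leptotene/zygotene than in spermatogonia and 7.25-fold higher in whole testis than in the somatic mixture.

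Brca1, which acts in repair with BARD1 and PALB2, was highest in leptotene/zygotene, as Dmc1 was and Brca2 was not. Its brightest probe set gave 394 in spermatogonia, 702 in leptotene/zygotene, 139 in pachytene, 493 in whole testis and 143 in the somatic mixture. It was higher by 0.83 in leptotene/zygotene than in spermatogonia and fell by 2.34 in pachytene, to the level of the somatic mixture. That call was not kept with quantile normalization (-1.81), median scaling (-1.97), scaling on the shared probe sets (-1.91), a floor at the 60th percentile (-1.64) or log2 of signal plus floor (-1.80). The other 3 Brca1 probe sets were dim. One had its highest signal in leptotene/zygotene (131) and was below the floor elsewhere, and another was below the floor in all 5 groups. The third went the other way, with 155 in spermatogonia, 46.2 in leptotene/zygotene, 106 in pachytene, 71.7 in whole testis and 134 in the somatic mixture. Averaged over its probe sets, the Brca1 pachytene difference was -0.39. Brca1 was higher in leptotene/zygotene than in whole testis by 0.51 (limit 0.46), and by 0.31 when arrays were scaled on the shared probe sets.

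Hsf2bp and Brme1 encode germ cell proteins that bind each other and bring BRCA2 to meiotic breaks, and both were highest in pachytene. The Hsf2bp signal was 182 in spermatogonia, 343 in leptotene/zygotene, 1544 in pachytene, 549 in whole testis and 67.1 in the somatic mixture. It was higher by 0.92 in leptotene/zygotene than in spermatogonia and rose by a further 2.17 in pachytene (1.71 with quantile normalization). A second Hsf2bp probe set stayed between 108 and 131 in the testis groups and was highest in the somatic mixture, at 175. Averaged over both, the pachytene difference was 1.12. Brme1 gave 125, 225, 576, 260 and 23.7 in the same order of groups, the last of these below the floor. Brme1 was higher by 0.85 in leptotene/zygotene than in spermatogonia and by a further 1.36 in pachytene, which was 4.61-fold above spermatogonia. Both genes were read from the second design, on which the pachytene array had the highest trimmed mean as deposited (148, against 63.4 to 105 on the other 4). Without scaling, their pachytene differences were 2.70 and 1.89.

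Rad54l varied little. Its signal was 204 in spermatogonia, 375 in leptotene/zygotene, 211 in pachytene, 233 in whole testis and 188 in the somatic mixture. Leptotene/zygotene stood above every other group, while each other neighbour in the order lay within the error limit. It was 1.84-fold higher in leptotene/zygotene than in spermatogonia. Of its other 3 probe sets, 1 was below the floor in every group, and 2 did not exceed 138 in any group. Of these 2, 1 was highest in leptotene/zygotene (138). The other was highest in whole testis (117), with 88.5 in leptotene/zygotene. Averaged over probe sets, the difference between leptotene/zygotene and whole testis went from 0.68 to 0.16, within the limit. With quantile normalization the difference of pachytene from leptotene/zygotene went from -0.83 to -0.27, smaller than the main limit of 0.41.

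Meiob, a meiotic relative of the RPA large subunit that binds single-stranded DNA, had the largest difference of the 9 between spermatogonia and leptotene/zygotene. Its probe set gave 57.4 in spermatogonia, 277 in leptotene/zygotene, 192 in pachytene, 736 in whole testis and 5.24 in the somatic mixture. It rose 4.82-fold from spermatogonia to leptotene/zygotene (log2 2.27). The spermatogonial signal was close to the floor of 47.0, and with a floor set from the chemosensory receptor probe sets of that design the difference was 1.38, below those of Dmc1 (1.65) and Psmc3ip (1.59). The pachytene difference of -0.53 was beyond the error limit of 0.41, but it was -0.003 for the deposited values and -0.01 after scaling on the shared probe sets. Meiob was 2.66-fold higher in whole testis than in leptotene/zygotene and 3.83-fold higher than in pachytene.

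**Figure D2:**
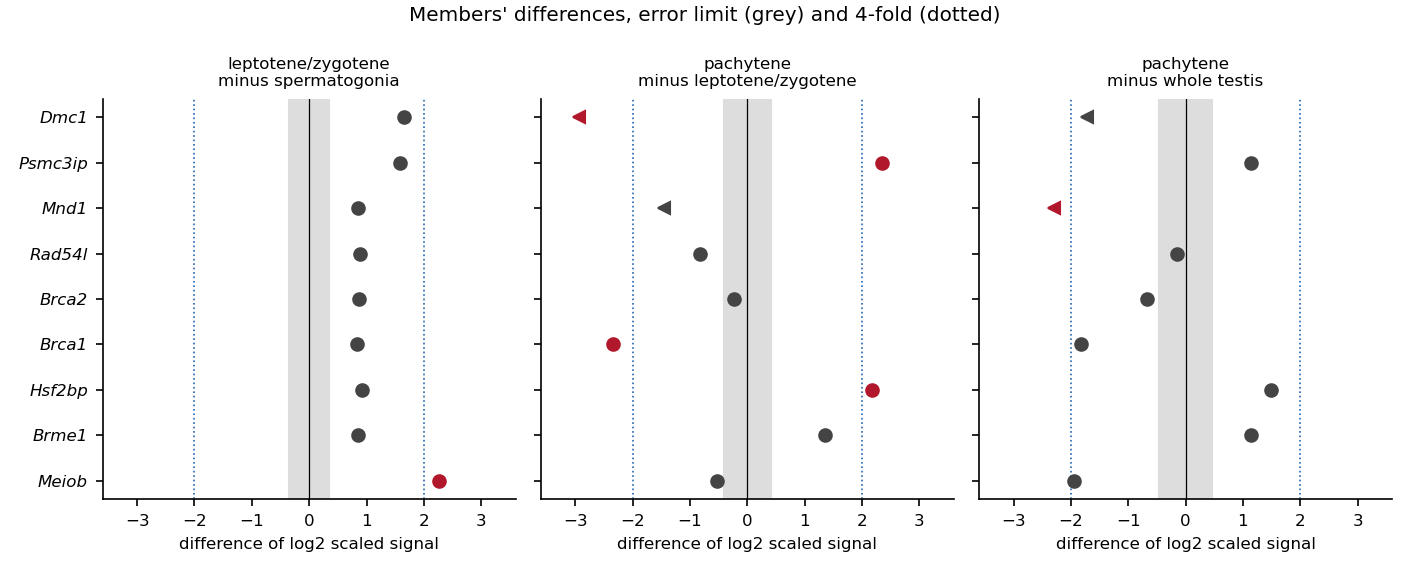
Difference of log2 scaled signal for the 9 members in 3 comparisons, 1 array per group. The grey band is the error limit from the shared probe sets, dotted lines mark 4-fold, red marks a call, and a triangle is a bound with 1 group at the floor. All 9 lie above the band in leptotene/zygotene minus spermatogonia, and they part in the other panels.

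Set together, the members were higher in leptotene/zygotene than in spermatogonia and then parted. In that first comparison 9 of 9 were higher beyond the limit of 0.35, against 24.1% of 12916 genes measured, and none was lower (22.2%). One member, Meiob, rose past 4-fold, against 0.31% of genes, and none fell (0.279%). The members' differences ran from 0.83 to 2.27 with a median of 0.88, beside 0.03 for the median of 11400 genes with both fractions above the floor. By probe set, 13 of 16 measured were higher, 2 within the limit and 1 lower. Marker lists differed in the same comparison. The germ cell markers were higher (3 of 3), as were 12 of 14 replication and cell cycle genes (median 0.61), and 4 of 4 measured macrophage and blood markers. Stage markers were higher as well: 9 of 9 of leptotene/zygotene (median 1.22), 8 of 8 measured of pachytene (median 1.46) and 6 of 8 of spermatogonia (median 0.75). Leydig markers (4 of 4), peritubular and stromal markers (5 of 6 measured) and 3 of 10 Sertoli markers were lower. Their part in the members' differences was not tested.

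From leptotene/zygotene to pachytene, 2 members rose (Psmc3ip and Hsf2bp) and 2 fell (Dmc1 and Brca1). The shares over 13513 genes were 8.7% and 9.34%. Beyond the limit of 0.41, 3 were higher and 5 lower, against 30% and 44% of all genes, and Brca2 was within it. The members' median was -0.53, with Dmc1 and Mnd1 entered as bounds at the floor. That of 10326 genes with both fractions above the floor was -0.24, a set that leaves bounds out. The 2 medians therefore cover unlike sets. The shares of members higher and lower beyond the limit were near those of all genes. The median of all genes moved by 0.17 with quantile normalization, 0.30 under median scaling and 0.36 on the shared probe sets. Of the members, Brca2 alone changed sign under these scalings. Sertoli markers were lower here (10 of 10, median -2.48), as were Leydig markers (4 of 4) and 9 of 14 replication genes (median -1.54), while 10 of 10 pachytene markers rose. Their part in the members' differences there was not tested.

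**Figure D3:**
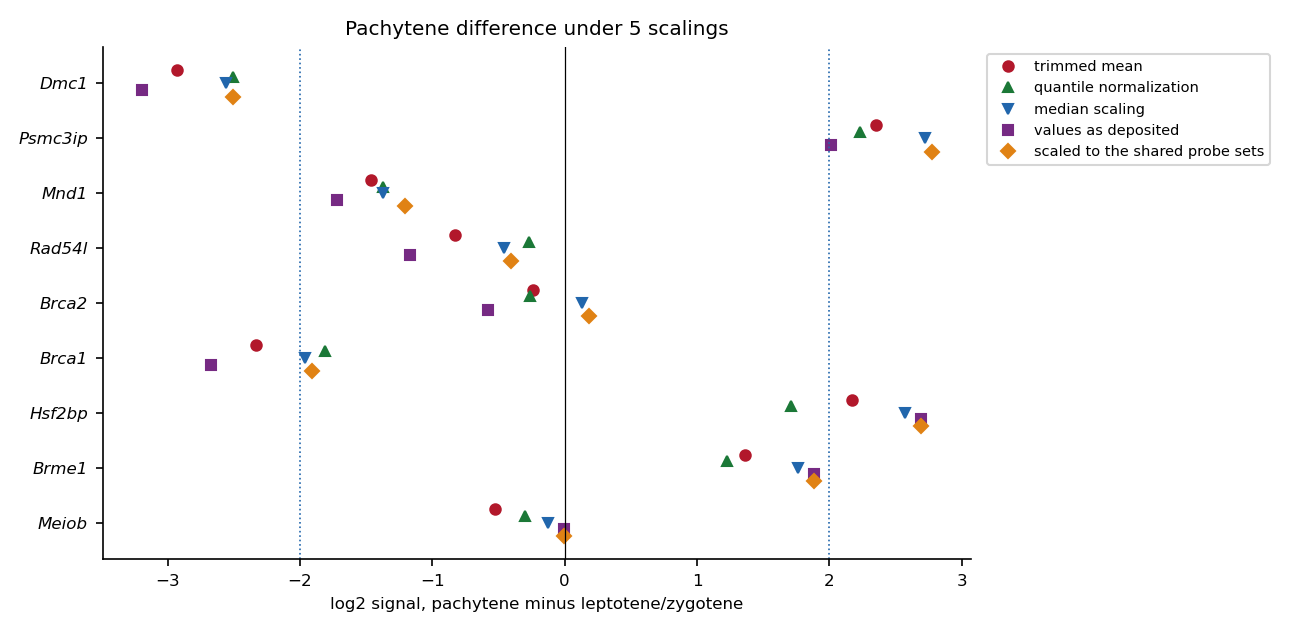
Log2 difference between pachytene and leptotene/zygotene for each member under 5 ways of scaling the arrays, with dotted lines at 4-fold. Dmc1, Mnd1, Rad54l and Brca1 stay below 0, Psmc3ip, Hsf2bp and Brme1 stay above it, Brca2 lies on both sides, and Meiob runs from -0.53 to -0.003.

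Between spermatogonia and pachytene the net change was upward for 5 members. Psmc3ip rose 15.4-fold, Hsf2bp 8.51-fold and Brme1 4.61-fold, so 3 of 9 rose and none fell, against 10% and 12.1% of 13694 genes. The call of Hsf2bp was lost with the mean over probe sets (1.61) and that of Brme1 with log2 of signal plus floor (1.86). Meiob (1.74) passed 4-fold under median scaling (2.04), as deposited (2.24) and when scaled on the shared probe sets (2.33). Meiob and Brca2 were higher beyond the limit of 0.46, Dmc1, Brca1 and Mnd1 were lower, and Rad54l was within it. Over all genes 29.8% were higher and 42.6% lower.

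Compared with whole testis of the same age, pachytene had more Hsf2bp (2.81-fold), Brme1 (2.22-fold) and Psmc3ip (2.20-fold; 0.70 on the log2 scale on the second design). It had less Mnd1, Meiob, Brca1 (3.54-fold), Dmc1 (at least 3.30-fold) and Brca2 (1.59-fold), and Rad54l was within the limit. Over 13832 genes 25.7% were higher and 38.2% lower, beside 3 and 5 of the 9 members. The single member that fell, Mnd1, compares with 4.38% of genes, and none rose, against 2.35%. As deposited, Hsf2bp (2.37) and Brme1 (2.03) passed 4-fold upward and Brca1 (-2.13) downward. Leptotene/zygotene (day 12) had more Dmc1, Rad54l and Brca1 than whole testis (day 15) and less Meiob, Psmc3ip, Mnd1 and Hsf2bp. Brca2 and Brme1 were within the limit. Over 13810 genes 25.8% were higher and 25.9% lower. No member passed 4-fold there, against 1.19% upward and 4.16% downward. Spermatogonia (day 8) had 6 members lower than whole testis and none higher, against 24.8% and 25% of 13938 genes. Of these, 2 fell past 4-fold, Meiob and Psmc3ip, against 5.17% of genes, and none rose (1.97%). Mnd1 and Meiob were therefore higher in whole testis than in any of the 3 fractions, for Meiob by 12.8-fold over spermatogonia. Against leptotene/zygotene and pachytene the sign of these differences held under all alternatives run; for spermatogonia no alternative was run. The 3' to 5' ratio of whole testis given above differs in the same comparisons, and its part was not tested.

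Against the somatic mixture, 6 of 9 members were at least 4-fold higher in whole testis (7.22% of 14976 genes) and none 4-fold lower (5.7%). Beyond the limit of 0.57, 8 of 9 were higher (29%) and none lower (30.6%). Meiob was at least 15.7-fold higher, Psmc3ip 11.9-fold, Hsf2bp 8.19-fold, Brca2 7.25-fold, Brme1 at least 5.53-fold and Mnd1 at least 4.92-fold. Brca1 was 3.46-fold and Dmc1 at least 3.30-fold higher, below the threshold. The call of Mnd1 was lost with the floor at the 60th percentile (0.94), that of Brme1 with that floor (1.98) and with the chemosensory receptor floor (1.29), and that of Hsf2bp with the mean over probe sets (1.31). As deposited, Brca1 passed 4-fold (2.01). Rad54l, with a difference of 0.31, was within the limit. Dmc1, Mnd1, Brme1 and Meiob were below the floor in the somatic mixture, whereas Psmc3ip, Brca1, Brca2, Hsf2bp and Rad54l were above it. For Hsf2bp (67.1) this depends on the floor of 47.0, the median signal of the second design. The chemosensory receptor floor of that design is above the Hsf2bp signal.

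Of 37 other listed genes of the pathway, 31 were matched to a probe set. In leptotene/zygotene against spermatogonia 18 were higher and none lower (24.1% and 22.2% of all genes), with a median of 0.45. None passed 4-fold. Bard1, the BRCA1 partner, had the largest difference (1.62), while Wrn (-0.30) and Hsf2 (-0.23) were within the limit. In pachytene against leptotene/zygotene 9 were higher and 10 lower, against 30% and 44% of all genes. None rose (8.7% of all genes), and 2 fell (9.34%). Those that fell were Firrm, encoding a partner of FIGNL1 (from 1005 to 183, a fall of 2.46), and Rpa2, encoding a subunit of the single-strand binding protein RPA (from 1347 to 255, a fall of 2.40). The largest differences upward were those of Hrob (1.77), which recruits the MCM8-MCM9 helicase, and Zswim7 (1.74), a partner of SWSAP1. In whole testis against the somatic mixture 19 of 31 were higher (29% of all genes) and 3 rose (7.22%). Among those that rose were Firrm (by at least 4.07) and Fignl1 (by 2.67). The lowest were Swsap1 (-0.24) and Rpa3 (-0.18), neither beyond the limit of 0.57. Swsap1 was below the floor in whole testis, so its value is a bound.

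**Figure D4:**
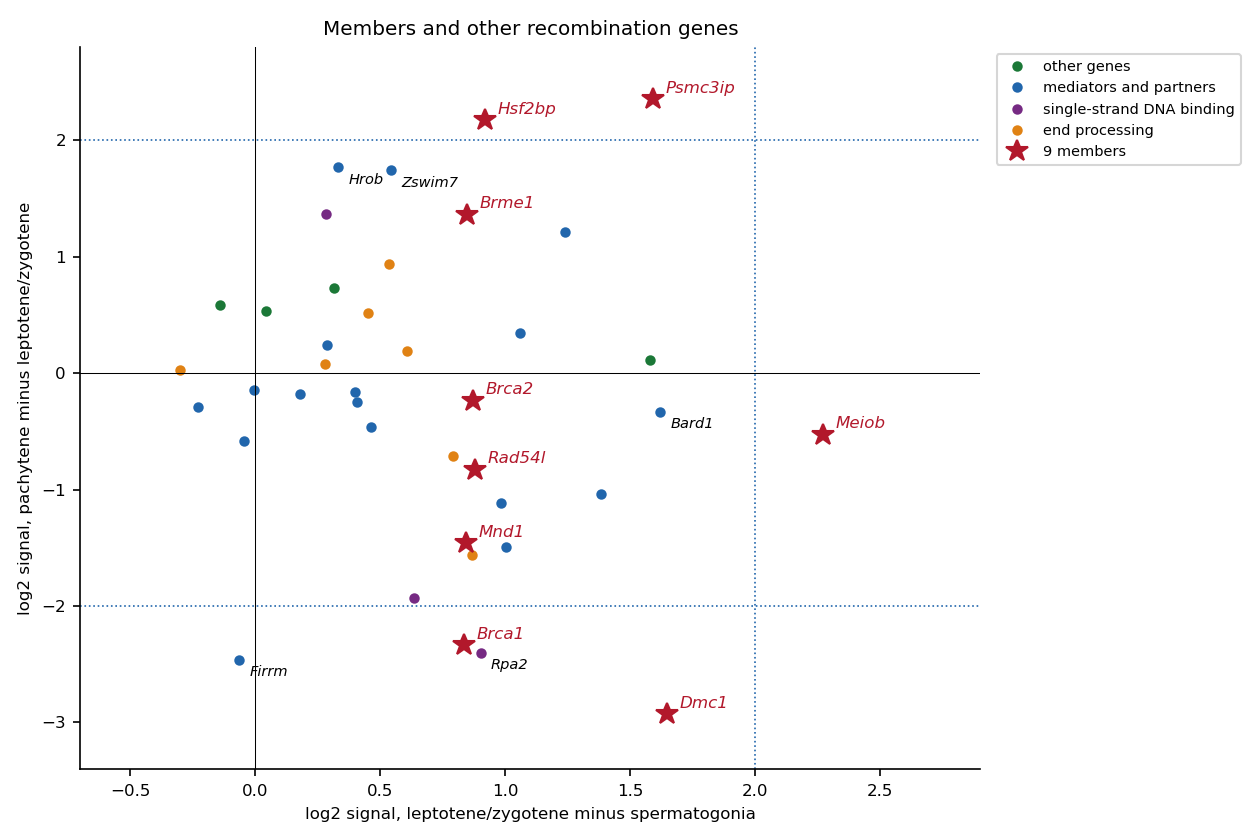
Log2 difference of pachytene minus leptotene/zygotene against that of leptotene/zygotene minus spermatogonia, for the 9 members (stars) and 31 other recombination genes (points by role), with bounds drawn at their bound and dotted lines at 4-fold. The axes share the leptotene/zygotene array, so no relation is read from the plot; Psmc3ip (1.59, 2.35) and Dmc1 (1.65, -2.93) sit at its top and bottom.

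The genes with profiles most like 3 of the members were sought by the root mean square difference of log2 signal over the 5 groups, with signals under the floor set to it and each profile centred on its mean. Groups in which both genes lie under the floor therefore add no difference of their own; Dmc1, Tex11 and Nptx2 are all under it in pachytene and in the somatic mixture. Among 10413 genes of the first design, the nearest to Dmc1 were Tex11 (0.16), Nptx2 (0.21) and Brca1 (0.28). Those nearest to Psmc3ip were Lrrc51 (0.17), Cdkl2 (0.20) and Prkag2 (0.20). Among 5283 genes of the second design, Kif27 was nearest to Meiob (0.44), followed by Kif20b (0.73) and 4930463O16Rik (0.74). Within the 9 members the closest pairs were Brca1 with Dmc1 (0.28) and Brme1 with Hsf2bp (0.36), and the farthest was Dmc1 with Psmc3ip (2.01).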

How the data were processed

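Signals were read from 10 arrays of 2 designs (22690 and 22575 probe sets), 1 per group and design. The deposited values are a linear intensity per probe set, and GCOS 1 is named per the submitters' processing notes; how they were scaled or background-corrected is not stated in those notes or the labels. Arrays of a design were scaled to the mean of their trimmed means (2% off each end). On the first design the floor was the 90th percentile over 68 probe sets of chemosensory receptors (87.6); with only 14 on the second, it was the median signal there (47.0). Probe sets naming several genes or none were left out. A gene was read from its brightest probe set, on the first design where any was above the floor. Differences are of log2 signal within a design; a call is 4-fold, and the error is the root mean square disagreement of the designs over 100 shared probe sets, over the square root of 2. Scaling and differences were tested on simulated data. The members and lists were chosen with earlier results of these data known. All members are named; of the pathway list, called genes and the 2 largest differences each way, some of which are not reported here. Python 3.11.15, numpy 2.4.6, pandas 2.3.3 and scipy 1.17.1 were used. Alternatives were other scalings, floors, a pseudocount, other probe set rules and the other design.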

Additional observations from a re-analysis of the deposited data

How the results depend on the processing

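No paired analysis was possible because each probe set was on 1 array per group and the samples sharing a number were on 1 design, so no group had 2 values of the same probe set among these genes. Alternatives (11 in all, not each possible for every gene) were run for 6 of the comparisons, not for spermatogonia against whole testis. In those 6 no called difference changed sign; 7 of 534 values did, all uncalled, for Brca2, Rad54l and Brme1. In leptotene/zygotene against spermatogonia the 1 call (Meiob) went to 0 with log2 of signal plus floor and, in an alternative chosen after seeing the data, with the chemosensory receptor floor on the second design. In pachytene against leptotene/zygotene the 2 upward calls became 1 with quantile normalization and with the mean over probe sets (Hsf2bp lost in both). The 2 downward calls became 1 with quantile normalization, median scaling, shared probe sets, signal plus floor or the mean over probe sets (Brca1 lost in each), and 0 with the 60th percentile floor. Members lower beyond the error limit there, 5, became 3 with quantile normalization and with the mean over probe sets. In pachytene against whole testis, values as deposited gave 2 upward and 2 downward calls in place of 0 and 1, and the downward call went to 0 with the 60th percentile floor and with signal plus floor. The number of arrays and the dim signals of Mnd1, Meiob and Rad54l limit precision; the cause of these changes was not tested.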

Other observations

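Subunits of other recombination complexes also differed in direction between pachytene and leptotene/zygotene; these genes were chosen after their values were seen. Rpa1, the large subunit of the single-strand binding protein RPA, was higher by 1.36 (from 4286 to 11037), whereas Rpa2 fell by 2.40 and Rpa3 was lower by 1.93 (from 990 to 260). Rpa1 stayed above 0 and Rpa2 and Rpa3 below it under all alternatives, from 1.02 to 1.86, from -2.74 to -1.98 and from -2.27 to -1.48. Fignl1, an ATPase of homologous recombination, was higher by 1.21 (from 820 to 1898) while its partner Firrm fell by 2.46, and under the alternatives these ran from 0.87 to 1.63 and from -2.74 to -1.93. Fignl1 was read from the first design and Firrm from the second, so their differences come from different arrays. Each value is from 1 array per group.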
